A study of Mus musculus with 8 samples.

Results

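Cpe, Sema3c, Lipn and Arrdc3 are 4 genes with large differences between mouse primary hepatocytes on a soft and on a stiff matrix, out of 56748 genes in the deposited count table and 14279 that passed the filter on low counts. They were chosen because in wild-type cells their counts on stiff hydrogel were far under those on soft hydrogel, with no such difference in cells that lacked Yap and Taz. All 4 passed the filter. Since those comparisons chose the genes, and every other comparison shares libraries with them, the values of the 4 genes are given below with their errors as a description and with no test. Hepatocytes came from C57BL/6J Yap fl/fl;Taz fl/fl mice of 7 to 8 weeks that had been injected with AAV8-TBG-Cre (knockout, KO) or AAV8-TBG-Null (wild type, WT) virus 10 days earlier, so the WT controls carried the floxed alleles and a virus as well. TBG is the thyroxine-binding globulin promoter, which is active in hepatocytes, so other liver cells of the KO mice were not targeted. The cells were cultured for 24 h on collagen-coated polyacrylamide hydrogels of 1 kPa (soft) or 20 kPa (stiff), and 2 libraries were sequenced in each of the 4 groups. The labels give no separate animal for each library, so the spread between the 2 libraries of a group may be technical.

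The 4 genes belong to unrelated families. Carboxypeptidase E, encoded by Cpe, trims basic residues from the ends of prohormone fragments in the secretory pathway of endocrine and neural cells. Sema3c encodes a secreted class 3 semaphorin, a guidance ligand that is read by neuropilin and plexin receptors on the target cell. Lipn encodes lipase N, a member of the acid lipase family best known from the outer layers of the skin. Arrdc3 encodes an alpha-arrestin, an adaptor that brings NEDD4-family ubiquitin ligases to membrane receptors. YAP and TAZ (the latter encoded by Wwtr1) are coactivators that enter the nucleus of cells on a stiff matrix and act mainly through TEAD transcription factors, and they can lower as well as raise the transcription of their targets.

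RefSeq promoter windows were at hand for 3 of the 4 genes, Sema3c, Lipn and Arrdc3. They are shown because the 3 genes were chosen for the same expression pattern while their promoters differed in base composition. Each sequence holds the 250 bases before the annotated start in the GRCm38.p6 build, 5′ to 3′ on the plus strand, with a matched motif in capitals. They lie at chr5:17574566-17574815 (Sema3c), chr19:34067108-34067357 (Lipn) and chr13:80883134-80883383 (Arrdc3, the first of 3 annotated windows).

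Sema3c: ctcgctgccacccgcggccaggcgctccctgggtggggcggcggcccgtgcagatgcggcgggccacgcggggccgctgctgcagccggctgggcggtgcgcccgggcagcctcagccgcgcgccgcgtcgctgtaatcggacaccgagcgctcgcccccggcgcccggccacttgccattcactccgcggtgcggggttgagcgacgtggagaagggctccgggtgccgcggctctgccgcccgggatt
Lipn: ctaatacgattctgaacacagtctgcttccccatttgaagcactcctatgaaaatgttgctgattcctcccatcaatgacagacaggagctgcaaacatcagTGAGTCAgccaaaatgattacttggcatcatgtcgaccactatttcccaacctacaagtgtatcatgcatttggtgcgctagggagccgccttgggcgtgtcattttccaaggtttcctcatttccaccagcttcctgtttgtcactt
Arrdc3: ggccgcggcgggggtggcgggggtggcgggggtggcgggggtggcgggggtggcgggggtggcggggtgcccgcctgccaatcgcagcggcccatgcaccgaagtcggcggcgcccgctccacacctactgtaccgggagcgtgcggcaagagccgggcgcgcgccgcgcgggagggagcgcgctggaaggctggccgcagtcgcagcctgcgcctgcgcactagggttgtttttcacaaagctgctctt

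The Sema3c window had a GC content of 78.4% and the Arrdc3 window 76%, against a median of 52.4% over 32841 promoter windows. The Lipn window, with a GC content of 46%, was below that median. The ratio of observed to expected CpG was 1.02 in Sema3c, 0.957 in Arrdc3 and 0.391 in Lipn, beside a median of 0.374. The windows of Sema3c and Arrdc3 were thus rich in CpG and that of Lipn was not. Of the 5 motifs searched on both strands, the AP-1 motif TGANTCA matched in Lipn, 148 bases before the start, and 6.75% of all windows held this motif. The TEAD motif CATTCC was in none of the 3 windows, nor in the other 2 Arrdc3 windows, and 12.6% of all windows held it. The forkhead motif TGTTTAC, the E-box CACGTG and the TATA box TATAAA were also not found in them, and occurred in 3.17%, 6.02% and 12.4% of all windows. These matches are descriptions of letters in short windows, not of bound factors.

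The libraries held 18324083 to 26442310 counts, with TMM factors of 0.978 to 1.02. The targeted genes were lower in every KO library than in every WT library. Yap1 had 1720 to 2913 counts in WT and 606 to 747 in KO, a log2 fold change of -1.68 ± 0.064 (SE) at 1 kPa and -2.20 ± 0.065 at 20 kPa. Wwtr1 had 748 to 1325 counts in WT and 277 to 410 in KO, with -1.37 ± 0.078 and -2.13 ± 0.079. All 4 of these tests gave an adjusted p of 4.32e-10 or lower by the quasi-likelihood test of edgeR, adjusted by Benjamini-Hochberg. Hepatocyte markers were abundant in all libraries, Alb with at least 1102456 counts in each. The labels disagree on the sex of the mice, and the paper's methods name male mice. Xist had 4818 to 8443 counts while 4 Y-linked genes had 0 in all libraries, which is the pattern of female cells.

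Cpe (ENSMUSG00000037852, chromosome 8, 65045576 to 65146088, minus strand, in the positions of the deposited table) was well covered. On the soft hydrogel it had 1261 and 829 counts in the WT libraries, or 48.6 and 46.0 CPM (the count relative to the TMM-scaled library size). On the stiff hydrogel WT cells had 67 and 52 counts, or 3.23 and 2.64 CPM. KO cells had 79.9 and 81.9 CPM at 1 kPa, and 78.5 and 83.7 CPM at 20 kPa. The 2 WT stiff libraries therefore stood alone at the bottom, the WT soft libraries in the middle and the 4 KO libraries at the top, where soft and stiff overlapped. Group means were 47.3 ± 1.79 (SD, n = 2) CPM in WT soft, 2.94 ± 0.416 in WT stiff, 80.9 ± 1.37 in KO soft and 81.1 ± 3.65 in KO stiff cells. The WT mean on the stiff hydrogel was 6.21% of that on the soft hydrogel, a 16.1-fold difference.

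Sema3c (ENSMUSG00000028780, chromosome 5, 17779279 to 17935266, plus strand) was the least abundant of the 4 genes per length. It had 238 and 154 counts in the WT soft and 14 and 10 counts in the WT stiff libraries. These came to 9.17 and 8.55 CPM against 0.675 and 0.508 CPM. KO libraries held 14.4 and 14.6 CPM at 1 kPa, and 16 and 13.8 CPM at 20 kPa. Again WT soft and WT stiff did not overlap, both lay under all KO libraries, and the KO groups overlapped. The means were 8.86 ± 0.434, 0.592 ± 0.118, 14.5 ± 0.148 and 14.9 ± 1.51 CPM (SD, n = 2) in the same order, and WT soft was 15.0-fold above WT stiff. The 24 counts of the 2 WT stiff libraries together allowed a level of 0.38 to 0.883 CPM (exact 95% Poisson interval), so the size of the Sema3c difference is the least precise of the 4. This and the other intervals cover counting error only.

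Lipn (ENSMUSG00000024770, chromosome 19, 34044758 to 34062318, plus strand) had 297 and 222 counts in the WT soft libraries and 24 and 29 in the WT stiff libraries. The CPM were 11.4 and 12.3 against 1.16 and 1.47. In KO cells they were 22.3 and 23.2 at 1 kPa, and 23.9 and 23.4 at 20 kPa. For Lipn the KO groups did not overlap, by a gap that was within the spread of the KO soft libraries, and the other groups kept the order seen for Cpe and Sema3c. The means were 11.9 ± 0.630, 1.32 ± 0.224, 22.8 ± 0.603 and 23.7 ± 0.362 CPM (SD, n = 2). WT soft was 9.04-fold above WT stiff, and the 53 counts in WT stiff cells allowed 0.982 to 1.72 CPM.

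Arrdc3 (ENSMUSG00000074794, chromosome 13, 81031503 to 81044161, plus strand) was the most abundant in CPM. WT cells had 2995 and 1836 counts at 1 kPa and 288 and 294 at 20 kPa, or 115.4 and 102.0 against 13.9 and 14.9 CPM. KO cells had 154.5 and 153.8 CPM at 1 kPa, and 153.3 and 152.3 CPM at 20 kPa. All 4 KO libraries lay within a narrow band above the WT soft libraries, and the WT stiff libraries were far below both. The means were 108.7 ± 9.46, 14.4 ± 0.743, 154.1 ± 0.491 and 152.8 ± 0.714 CPM (SD, n = 2), with WT soft 7.54-fold above WT stiff. The KO stiff libraries were both below the KO soft libraries, but their mean was 0.991 times that of KO soft.

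**Figure D1:**
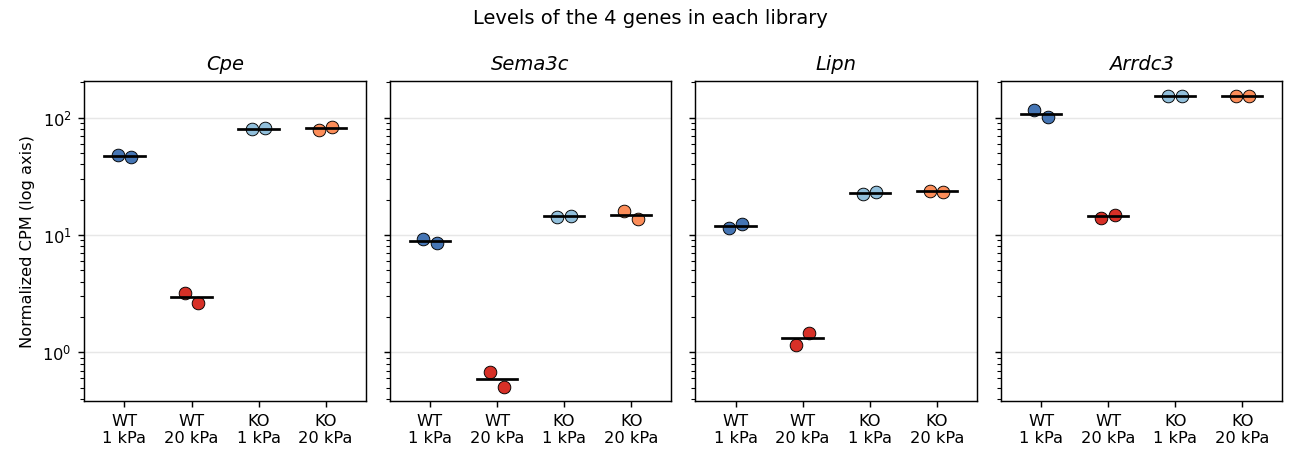
Normalized CPM (log axis) of Cpe, Sema3c, Lipn and Arrdc3 in each of the 8 libraries, with points for libraries and bars for group means (n = 2 per group, WT wild type and KO Yap/Taz knockout, at 1 or 20 kPa). In each gene the WT 20 kPa points lie lowest, the WT 1 kPa points lie between, and the 4 KO points lie highest at both stiffnesses.

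Per length, Cpe and Arrdc3 were close to each other in WT cells on the soft hydrogel, at 18.1 and 17.3 RPKM (CPM per kilobase of gene length). These levels stood at percentiles 81.7 and 80.9 among the tested genes. Lipn had 6.31 RPKM (percentile 60.5) and Sema3c 1.24 RPKM (percentile 29). On the stiff hydrogel the WT levels were 1.13 RPKM for Cpe, 2.30 for Arrdc3, 0.698 for Lipn and 0.0829 for Sema3c, at percentiles 27.5, 38.7, 21.3 and 3.35. Cpe and Arrdc3 thus changed places in the order of levels, with Arrdc3 the higher on the stiff hydrogel in WT cells. In KO cells Cpe was the highest on both hydrogels, at 31.0 and 31.1 RPKM, followed by Arrdc3 at 24.6 and 24.4, Lipn at 12.1 and 12.6 and Sema3c at 2.03 and 2.09.

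In the fit over all 8 libraries, the log2 fold change from soft to stiff in WT cells was -4.01 ± 0.099 (SE) for Cpe, -3.89 ± 0.214 for Sema3c, -3.17 ± 0.161 for Lipn and -2.92 ± 0.071 for Arrdc3. The median of the 4 was -3.53, beside -0.00874 over all tested genes. Of the tested genes, 9.26% were called lower and 10% higher in this comparison, where a call required an adjusted p below 0.05 together with a log2 fold change beyond 0.5 in size. Cpe and Sema3c differed from each other in the size of this change by less than the error of Sema3c. Lipn and Arrdc3 had smaller changes than either, and their values lay within 2 standard errors of Lipn from each other.

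The same contrast in KO cells gave log2 fold changes of 0.0033 ± 0.060 (SE) for Cpe, 0.044 ± 0.124 for Sema3c, 0.059 ± 0.099 for Lipn and -0.013 ± 0.056 for Arrdc3. Each was smaller than its own standard error. By edgeR, 0.021% of the tested genes (3 genes) were called in this comparison, 0.014% higher and 0.007% lower, beside 1077 genes at an unadjusted p under 0.05. The count of 3 became 1 without KO soft library 1, 6 without KO soft library 2, 4 without KO stiff library 1 and 8 without KO stiff library 2, and 50 with no filter on low counts. The stiffness effect in KO minus that in WT cells was 4.01 ± 0.12 for Cpe, 3.93 ± 0.256 for Sema3c, 3.23 ± 0.193 for Lipn and 2.91 ± 0.091 for Arrdc3, on the log2 scale. In this difference 8.64% of the tested genes were called higher and 8.21% lower.

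On the soft hydrogel all 4 genes were also above their WT level in KO cells, which the choice of the genes did not ask for, although the WT soft libraries were used in it. The log2 fold change of KO against WT was 0.77 ± 0.063 (SE) for Cpe, 0.70 ± 0.13 for Sema3c, 0.94 ± 0.105 for Lipn and 0.50 ± 0.057 for Arrdc3, or 1.71-, 1.63-, 1.91- and 1.42-fold in mean CPM. In this comparison 2.02% of the tested genes were called higher and 4.65% lower. Both KO soft libraries were above both WT soft libraries for all 4 genes, and for 688 (52%) of the 1322 genes called lower on the stiff hydrogel in WT cells. The step from WT soft to KO soft was thus not particular to the 4 genes. How many of all tested genes had this order was not counted, so the 52% has no background beside it. On the stiff hydrogel KO cells were above WT cells by 4.78 ± 0.095 (Cpe), 4.64 ± 0.202 (Sema3c), 4.17 ± 0.15 (Lipn) and 3.41 ± 0.070 (Arrdc3) on the log2 scale, where 13.7% of the tested genes were called higher and 15% lower. These comparisons share libraries, so their values are not separate evidence.

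**Figure D2:**
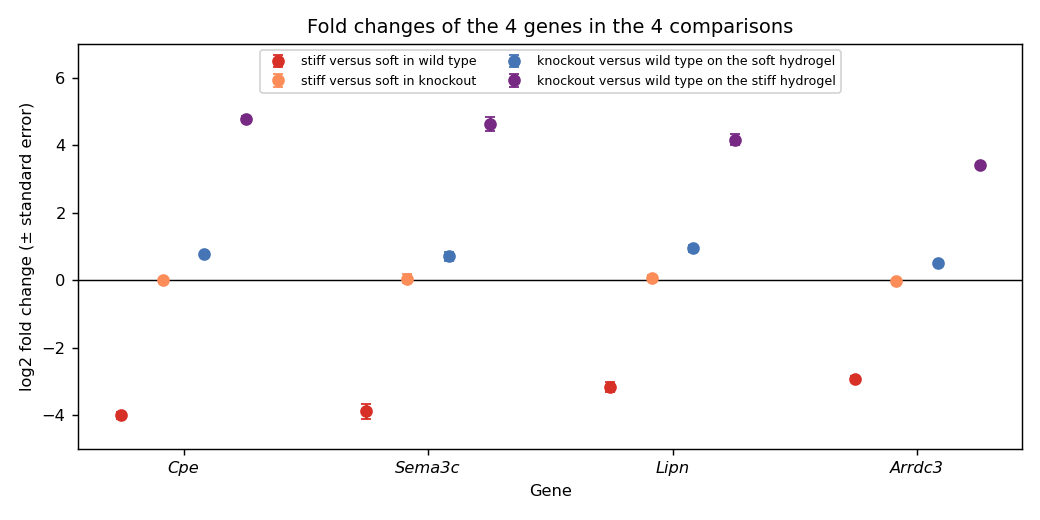
Log2 fold changes with standard errors of Cpe, Sema3c, Lipn and Arrdc3 in 4 comparisons, each between 2 groups of 2 libraries. The standard errors come from the fit over all 8 libraries. The stiff-against-soft change in wild type lies between -4.01 and -2.92, the same change in knockout lies at 0 within its error, and knockout lies above wild type on both hydrogels.

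Among 10037 genes with a mean of at least 100 counts, ranked by the WT change from soft to stiff, Cpe was in place 2, Sema3c in place 3, Lipn in place 6 and Arrdc3 in place 8. Among all 14279 tested genes, many of the lowest values belong to genes with few counts, and the 4 genes held places 26, 27, 52 and 61. Place 1 was held by Gm17222, a predicted gene, with a log2 fold change of -6.06 in WT and 0.07 in KO cells. Gt(ROSA)26Sor, the noncoding transcript of a locus used for knock-in transgenes, had -3.54 and -0.11. According to the methods the floxed mice were bred with a reporter at this locus. Cck, which encodes the prohormone of cholecystokinin, had -3.21 in WT and 0.07 in KO cells. Atp13a4, which encodes a P5-type ATPase, had -3.06 and 0.05. Npy, which encodes the prohormone of neuropeptide Y, followed Arrdc3 in place 9 with -2.88 and -0.30. Among these 10037 genes, the 4 others with a change at least as large as that of Arrdc3 had a log2 fold change between -0.5 and 0.5 in KO cells, as did 9988 (99.5%) of all 10037, so such a value in KO cells sets no gene apart.

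**Figure D3:**
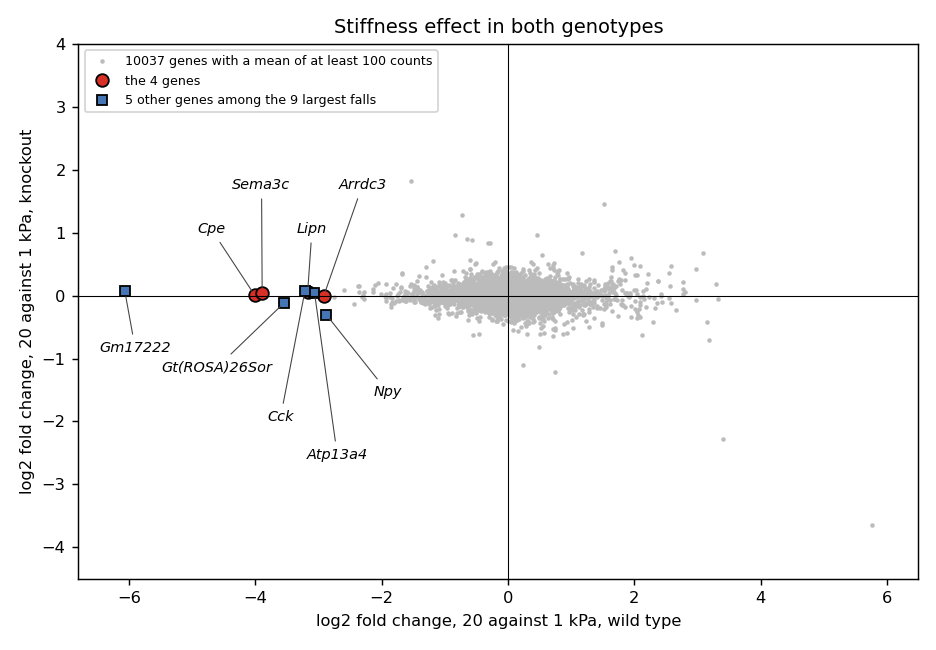
Log2 fold change from 1 to 20 kPa in wild type (horizontal) and in knockout (vertical) for 10037 genes with a mean of at least 100 counts, with Cpe, Sema3c, Lipn and Arrdc3 as red circles and the other 5 genes of the first 9 places as blue squares. The 9 marked genes lie at the far left and close to 0 on the vertical axis.

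The 4 genes had profiles of similar shape over the 8 libraries, which follows from how they were chosen and is no separate result. Likeness was measured as the root mean square difference of log2 CPM over the 8 libraries after each gene's mean was removed, so that a smaller value means a closer profile. This distance depends on the size of a change as well as on its shape, so genes with similarly large WT changes come out near. Cpe and Sema3c were nearest to each other, at 0.149, where the median distance of Cpe to the 10037 genes was 1.97. Cpe and Arrdc3 were the most distant pair of the 4, at 0.563. For Cpe the nearest genes were Sema3c, Lipn (0.372), Gt(ROSA)26Sor (0.414), Atp13a4 (0.454) and Cck (0.514). For Sema3c they were Cpe, Lipn (0.288), Atp13a4 (0.334), Gt(ROSA)26Sor (0.389) and Cck (0.403). Lipn had Atp13a4 (0.2), Matn2 (0.236), Cck (0.252), Gt(ROSA)26Sor (0.261) and Sema3c (0.288) as its nearest genes. Arrdc3 had Atp13a4 (0.142), Cck (0.153), Npy (0.16), Matn2 (0.166) and Aox3 (0.199). Matn2 encodes the matrix protein matrilin 2 and Aox3 an aldehyde oxidase, with WT changes from soft to stiff of -2.75 and -2.43 on the log2 scale. Atp13a4 and Cck were thus among the 5 nearest genes of each of the 4.

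Genes of the same families and pathways were then tested across all genes with edgeR. Of 106 related genes in 4 lists, 71 passed the filter on low counts. On the stiff hydrogel in WT cells 5 of them rose and 17 fell, or 31% called where 19.3% of all tested genes were called. Their median log2 fold change was -0.228. In KO cells edgeR called 0 of the 71, where only 0.021% of all tested genes were called. An unadjusted p under 0.05 was found for 5 of the 71 and for 7.54% of all tested genes (edgeR). On the soft hydrogel 2 of the 71 were higher and 5 lower in KO than in WT cells (9.86% against 6.67% of all tested genes), and on the stiff hydrogel 17 were higher and 10 lower (38% against 28.7%).

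Among 15 tested carboxypeptidases and prohormone-processing genes, 1 fell and 2 rose on the stiff hydrogel in WT cells. These were 20% called, close to the 19.3% of all tested genes, and the median log2 fold change was -0.226. Cpd, a membrane carboxypeptidase related to Cpe, fell from 91.3 ± 4.33 to 62.1 ± 3.33 CPM (SD, n = 2), by 0.56 on the log2 scale (adjusted p = 2.48e-07, edgeR), but by 0.50, just under the fold threshold, without WT soft library 1. Pam, which amidates peptide ends after carboxypeptidase action, rose from 16.4 to 25.3 CPM (0.63, adjusted p = 2.31e-05, edgeR). Cpa4 rose by 1.54 (adjusted p = 0.0262, edgeR) from 11 and 11 counts to 36 and 24, with 0 to 2 counts in the KO libraries, and was not called when any WT library was left out (1.26 to 1.80). The convertases that work with Cpe in endocrine cells were almost absent. Pcsk1 had at most 2 counts in a library, and Pcsk2, its chaperone gene Scg5 and the granule gene Chga had 0 in all 8. The general convertase Furin was present, at 288.7 ± 26.9 CPM in WT soft and 267.7 ± 0.829 in WT stiff cells, and was not called.

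Of 24 tested semaphorins and semaphorin receptors, 7 fell and 2 rose in WT cells, or 37.5% called beside 19.3% of all tested genes. Their median log2 fold change was -0.418. The plexin Plxnd1, a receptor of class 3 semaphorins, fell from 29.4 ± 3.12 to 12.9 ± 0.364 CPM (SD, n = 2), by 1.19 on the log2 scale (adjusted p = 8.88e-09, edgeR). In KO cells it had 35.1 ± 1.32 and 38.3 ± 1.17 CPM, so its order of groups was that of Sema3c with a smaller range. The neuropilin Nrp2 went the other way, from 12.4 to 19.8 CPM (0.68, adjusted p = 3.98e-05, edgeR). Its partner Nrp1 had -0.42 and was not called, since its change was under the fold threshold. Plxnc1 fell by 2.05, Sema6d by 0.94, Sema6a by 0.75, Plxna3 by 0.68, Sema4g by 0.66 and Sema6b by 0.53 on the log2 scale. Sema6d and Sema6a also had both KO means above the WT soft mean, and those of Plxnc1 lay on either side of it. Both KO means were below it for Plxna3 (1.38 and 1.28 against 3.40 CPM), Sema4g (80.34 and 83.25 against 83.74) and Sema6b (16.35 and 16.71 against 17.31). Sema4d, a transmembrane semaphorin, rose by 1.07 from a low level of 0.994 CPM (adjusted p = 0.0419, edgeR). Some of these calls were lost when 1 library was left out, in some cases although the change itself became larger. Without WT soft library 1 those of Sema6a (-0.52), Plxna3 (-0.59) and Sema4d (1.35) were lost, and without WT soft library 2 those of Sema6b (-0.47), Plxna3 (-0.75) and Sema4d (0.88). Without WT stiff library 2 those of Sema6a (-0.61), Sema6d (-0.74) and Plxna3 (-0.47) were lost, and without WT stiff library 1 that of Sema4d (0.73). The other tested class 3 semaphorins, Sema3b, Sema3e and Sema3f, had 0.78, -0.42 and -0.44 and were not called, and Sema3a and Sema3d had at most 5 and 10 counts in a library.

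Of 13 tested lipases and lipase cofactors 6 fell and 1 rose, or 53.8% called beside 19.3% of all tested genes. Their median log2 fold change was -0.0831. Lipa, the lysosomal acid lipase of the family of Lipn, fell from 276.9 ± 3.20 to 157.1 ± 4.02 CPM (SD, n = 2), by 0.82 on the log2 scale (adjusted p = 2.44e-11, edgeR). KO cells had 335.6 ± 2.62 and 328.3 ± 9.39 CPM of Lipa, so both KO means were above the WT soft mean, as for Lipn. Lipc, the hepatic lipase, fell by 0.92 and Ces1d, a carboxylesterase, by 0.85 on the log2 scale. Pnpla3 fell by 0.81, Lpl (lipoprotein lipase) by 0.63 and Mgll (monoglyceride lipase) by 0.60. Lipc, Lpl and Mgll also had both KO means above the WT soft mean, but Ces1d and Pnpla3 had both below it. Ces1d had 134.5 and 136.3 CPM in KO against 159.4 in WT soft cells, and Pnpla3 had 1.05 and 1.01 against 4.28. The call of Lpl was lost without WT stiff library 1 (-0.48), and that of Pnpla3 without WT soft library 2 (-0.68) or WT stiff library 2 (-0.63). Lipe, the hormone-sensitive lipase, rose by 0.68 from 4.88 to 7.85 CPM (adjusted p = 0.00373, edgeR). The triglyceride lipase gene Pnpla2, at 93.3 and 101.8 CPM, was not called. Lipf, Lipk and Lipm, which lie in the acid lipase family with Lipn, had 0 counts in all 8 libraries, and a count of 0 allows up to 0.164 CPM in the shallowest library.

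Of 19 tested arrestins, NEDD4-family ligases and their partners 3 fell and 0 rose, or 15.8% called beside 19.3% of all tested genes. Their median log2 fold change was -0.0785. Txnip, an alpha-arrestin that limits glucose uptake, fell from 141.3 ± 0.723 to 45.5 ± 0.598 CPM (SD, n = 2), by 1.64 on the log2 scale (adjusted p = 2.51e-14, edgeR). KO cells had 163.1 ± 1.14 and 160.7 ± 4.46 CPM of Txnip. The alpha-arrestin Arrdc4 fell by 0.89 (adjusted p = 3.5e-09, edgeR) and the beta-arrestin Arrb2 by 0.58 (adjusted p = 1.89e-05, edgeR). Unlike Txnip, both had KO means below the WT soft mean. Arrdc4 had 52.0 and 51.2 CPM in KO against 63.2 in WT soft cells, and Arrb2 had 28.1 and 29.9 against 31.5. Arrdc1 and Arrdc2 had 0.13 and -0.14 and were not called. Of the ligases to which alpha-arrestins bind, Nedd4 had 646.3 ± 15.6 and 658.1 ± 6.70 CPM in WT soft and WT stiff cells, and none of the 8 tested ligases was called.

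**Figure D4:**
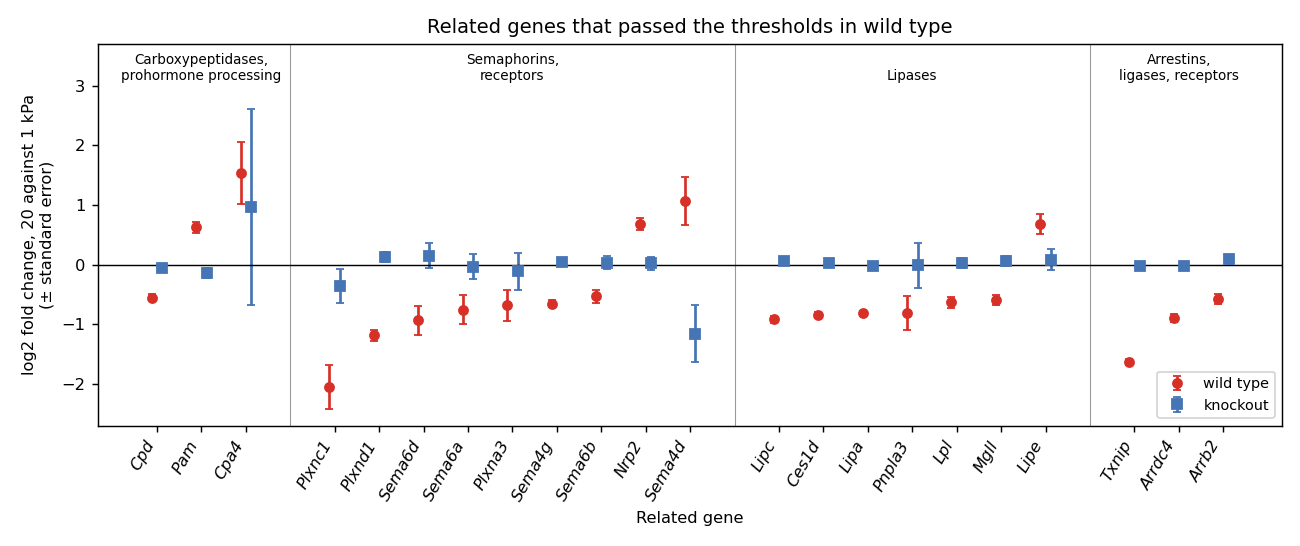
Log2 fold change from 1 to 20 kPa, with standard errors, of the 22 related genes that passed the thresholds in wild type, shown for wild type (red circles) and knockout (blue squares) and grouped by list. Of the 22 genes 17 lie below 0 and 5 above it in wild type. In knockout edgeR called 0 of them, where only 0.021% of all tested genes were called.

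The stiffness effect of a related gene can be compared between genotypes by the interaction term. It was called positive, with a higher value in KO than in WT cells, for 14 of the 71 genes and called negative for 3. By edgeR this was 23.9% called against 16.8% of all tested genes. The other genes had values of either sign that were not called. The largest positive values with 100 or more counts on average were those of Txnip (1.61 ± 0.069, SE), Plxnd1 (1.31 ± 0.125) and Lipc (0.97 ± 0.073).

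Within 250 kb of the 4 gene bodies lay 43 genes, of which 9 were tested. In WT cells 1 rose and 2 fell at 20 kPa, too few to set against the 10% of all tested genes that were called higher and the 9.26% called lower. Msmo1, a sterol synthesis gene 25.1 kb from Cpe, had 0.30 and Klhl2 at 46.6 kb had 0.09 on the log2 scale, and neither was called. Cd36, a fatty acid receptor gene 51.4 kb from Sema3c, had -0.43 and was not called. Near Lipn, Fas at 206 kb, a death receptor gene, rose by 1.03 (adjusted p = 1.7e-05, edgeR), while Stambpl1 and Acta2 had 0.27 and 0.44 and were not called. Near Arrdc3, Adgrv1 at 199 kb fell by 1.84 (adjusted p = 0.00353, edgeR) at 1.34 CPM or lower in WT cells, a call that was lost without WT stiff library 2 (-1.33). The noncoding gene 5430425K12Rik, 44.4 kb from Arrdc3, had 21 and 7 counts in WT soft and 1 and 0 in WT stiff libraries, and 6 to 11 in KO libraries. Its adjusted p was 0.00276 (edgeR), the call was lost without WT soft library 1 (-3.68), and the ratio of WT soft to WT stiff was 25.7, with an exact 95% interval of 4.26 to 1050 from the counts. The predicted gene Gm8399 had 0.60 and was not called.

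Shared sequence was looked for in the GENCODE M21 transcripts. None of the 2054 (Cpe), 5428 (Sema3c), 1439 (Lipn) and 4069 (Arrdc3) windows of 64 bases in their longest transcripts occurred in the transcript of another gene. A noncoding gene on the other strand, 1700023H06Rik, overlaps Arrdc3 with a mean of 2.25 counts, and a microRNA gene with 0 counts overlaps Lipn. How strand entered the counting is not given in the sources used here.

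Markers of other liver cells moved in the same order as the 4 genes, over a smaller range. The summed level of 8 stellate cell and fibroblast markers was 34.4 CPM in both WT soft libraries, 23.6 to 25.3 in WT stiff, 47.8 to 49.1 in KO soft and 50.4 to 53.9 in KO stiff libraries. The 6 endothelial markers summed to 51.9 to 57.3, 36.7 to 37.1, 69.0 to 69.4 and 70.1 to 73.9 CPM in the same groups. The 6 markers of Kupffer cells and macrophages summed to 61.7 to 62.8, 42.6 to 48.4, 85.9 to 86.2 and 86.4 to 86.7 CPM. Cd68, with 696 to 1471 counts in a library, made up the largest part of this last sum. In WT cells 3 of 7 tested stellate, 3 of 6 endothelial and 3 of 6 Kupffer cell markers were called lower on the stiff hydrogel. Of the stellate markers 1 was called higher. Over all tested genes 9.26% were called lower and 10% higher. In KO cells edgeR called 0 of these markers, where only 0.021% of all tested genes were called. The sums were 1.41-, 1.48- and 1.37-fold higher in WT soft than in WT stiff cells, where the 4 genes were 7.54- to 16.1-fold higher. From WT to KO on the soft hydrogel they were 1.41-, 1.27- and 1.38-fold higher. The 4 genes were 1.42-fold (Arrdc3) to 1.91-fold (Lipn) higher, so the sums were near Arrdc3 and below the other genes. The part of other cells in that step was not tested. Cholangiocyte markers (6, with Cftr at 0 in all libraries) summed to 548 to 584, 599 to 602, 345 to 348 and 320 to 333 CPM, in another order. Spp1 had by far the most counts of these 6 (5978 to 14077 in a library), so their sum mainly follows Spp1. Of the 4 tested, 1 was called higher on the stiff hydrogel in WT cells, Krt19 (3.30 on the log2 scale), and 0 lower. The 7 hepatocyte markers summed to 88040 to 88750 CPM in WT soft, 91180 to 92680 in WT stiff, 61000 to 61480 in KO soft and 60850 to 61080 in KO stiff libraries. Alb had by far the most counts of the 7, so these sums mainly follow Alb. Of the 7, 2 were called lower on the stiff hydrogel in WT cells, Hnf4a (-0.98) and Tat (-0.72), and 0 higher. In bulk samples, fewer cells of a type and less RNA per cell cannot be told apart.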

How the data were processed

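RNA of mouse primary hepatocytes was sequenced in 8 libraries. Per the labels, mm9 and HISAT2 2.0.5 appear in the submitters' processing notes, and the methods name featureCounts. The authors deposited raw counts per gene with no normalization, with gene lengths and positions. Of 52073 genes matched by ID, 97.1% start elsewhere than in GENCODE M21 (GRCm38), so the build of these positions was not settled; they are printed as deposited, and the promoter coordinates are of another source.

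Counts were fitted with edgeR 4.0.16 in R 4.3.3 (filterByExpr by group, TMM, glmQLFit with a term per group over all 8 libraries, 4 residual degrees of freedom, glmQLFTest, Benjamini-Hochberg adjustment over 14279 genes). A call required an adjusted p below 0.05 together with a log2 fold change beyond 0.5 in size, as in the study's methods. The prior count of log2 CPM was 2. Standard errors were derived from the fold change and its F value. Totals of 18324083 to 26442310 counts put 3 counts, the limit that a count of 0 allows, at 0.113 to 0.164 CPM. DESeq2 1.42.0, other scalings, filters, thresholds, a replicate term and each library left out were the alternatives. The steps were tested on simulated data.

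The 4 genes, the gene lists and the tests were chosen with earlier results of these data known. The text names the 4 genes, Yap1 and Wwtr1, related genes called in WT, tested genes within 250 kb, the 5 nearest profiles and the genes next in the order of the WT change. Other related genes, marker genes and genes without counts were named after their values were seen. Protein sequences were not used here, so the nearest relative by protein identity was not computed. A gene of the related lists is not reported here.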

Additional observations from a re-analysis of the deposited data

Results flagged for a closer look

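Among the tested related genes and those within 250 kb of the 4, 19 were called for a stiffness effect that differed between the genotypes. The call used the interaction term in edgeR's quasi-likelihood fit (Benjamini-Hochberg adjusted p below 0.05 and a difference beyond 0.5 in size). Of all tested genes, 16.8% were called in this difference. Values are the log2 effect in KO minus that in WT cells. Among the lipases they were 0.785 for Lipa, 0.971 for Lipc, 0.868 for Ces1d, 0.66 for Mgll and 0.659 for Lpl. Among the arrestins they were 1.61 for Txnip, 0.868 for Arrdc4 and 0.663 for Arrb2.

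Semaphorins and their receptors gave 1.69 for Plxnc1, 1.31 for Plxnd1, 1.09 for Sema6d, 0.712 for Sema4g, 0.565 for Sema6b and 0.514 for Plxnb1, which was not called in WT cells alone. Nrp2 (-0.661) and Sema4d (-2.23), both higher on the stiff hydrogel in WT cells, had negative values. Pam had -0.77. Of the genes near the 4, Fas had -1.15 and the scarcely counted 5430425K12Rik had 4.57. When a library was left out, the difference lost its call for Lpl (0.50 without WT stiff library 1), Sema6b (0.49 without WT soft library 2 or KO soft library 1), Sema6d (0.89 without WT stiff library 2, 0.93 without KO stiff library 1) and Plxnc1 (1.27 without WT stiff library 2). The same held for Sema4d (-1.905 without WT stiff library 1, -1.69 without KO soft library 2) and 5430425K12Rik (3.74 to 4.22 over 4 libraries). With 2 libraries in each group, single outlying libraries could not be assessed.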

How the results depend on the processing

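Over the alternatives, the WT change from soft to stiff ran from -4.16 to -3.87 for Cpe and -4.11 to -3.71 for Sema3c on the log2 scale. It ran from -3.35 to -3.00 for Lipn and -3.00 to -2.82 for Arrdc3. Of the single related or neighbouring genes called in WT, none had its call reversed. The KO change of Arrdc3, -0.013, was -0.025 with no filter on low counts and -0.021 with only the 4 libraries compared; that of Cpe (-0.051 to 0.046) and Sema3c (-0.067 to 0.135) took either sign when a library was left out. Related genes higher in WT numbered 5, but 3 with DESeq2, 3 with at least 10 counts in every library, 11 with no minimum fold change, 2 over a log2 fold change of 1, and 3 to 4 with a library left out. Those lower numbered 17, but 29 with no minimum fold change and 3 over 1. In the interaction, 14 higher and 3 lower became 24 and 7 with no minimum and 4 and 1 over 1. Neighbouring genes higher numbered 1, but 2 with no filter on low counts, 3 with no minimum fold change and 1 to 2 with a library left out. Those lower numbered 2, but 0 with at least 10 counts in every library, 1 with only the 4 libraries compared and 1 to 3 with a library left out. Over all genes, the WT count of 2754 ran from 1244 to 5859 and the KO count of 3 from 1 to 50. Of 25 single related or neighbouring genes called in WT, 11 lost the call under some alternative: Cpd (without WT soft library 1), 5430425K12Rik (likewise), Lpl (without WT stiff library 1), Sema6b (without WT soft library 2), Sema6d and Adgrv1 (without WT stiff library 2), and Sema6a, Pnpla3, Plxna3, Sema4d and Cpa4 (with DESeq2, and when any of 2 to 4 WT libraries was left out).

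Replicate numbers are shared between groups, but deviations of same-numbered libraries correlated at 0.0364 (WT soft with WT stiff), 0.179 (WT soft with KO soft), -0.316 (WT soft with KO stiff), 0.206 (WT stiff with KO soft), -0.0488 (WT stiff with KO stiff) and -0.068 (KO soft with KO stiff), so the numbers were not taken as pairs. With a replicate block, 4 related genes were higher and 16 lower in WT, Plxna3 and Sema4d losing their calls. With group means in place of libraries, 5, 5, 5 and 4 of the 5 nearest profiles of Cpe, Sema3c, Lipn and Arrdc3 remained. With 2 libraries in a group, leaving 1 out assumes that the lone library varies like the others. Depth limits Sema3c and Lipn in WT stiff cells most.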
